A study of Drosophila melanogaster with 17 samples.

Results

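The genes described here are the chemosensory receptors of Drosophila melanogaster, namely the odorant receptors (Or, with the co-receptor Orco), the gustatory receptors (Gr) and the ionotropic receptors (Ir). They were chosen by symbol alone, as every gene whose name is Or, Gr or Ir followed by a number and a letter, or is Orco. The rule found 180 of the 16977 genes counted, 60 in each family. In the genome build BDGP6 they lay on the X chromosome (25 genes) and on the arms 2L (31), 2R (46), 3L (35) and 3R (43), and 53 of them shared part of their span with another gene.

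Translating ribosome affinity purification (TRAP) recovers mRNA bound to ribosomes that carry a tagged subunit, here Flag-GFP-RpL10 driven by a GAL4 line. Heads of 2-day-old adults of the genotype DIP-γ>Flag-GFP-RpL10 (DIP-gamma-GAL4/UAS-Flag-GFP-RpL10, 3 TRAP samples) were compared with Flag-GFP-RpL10/+ heads, which carry the same transgene without a driver (3 control samples). Legs of 2-day-old flies had the same genotypes (3 TRAP, 2 control samples), and axonal sections of third-instar (L3) larvae had OK371-GAL4/UAS-Flag-GFP-RpL10 against the same driverless control (3 and 3). All groups therefore carry the tagged ribosome, which the study describes as leaky without GAL4, and every sample pools several animals, males only for heads and both sexes for legs. Each tissue has its own batch number in the labels, so that tissue and batch cannot be told apart.

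As background, odorant receptors are ligand-gated cation channels of olfactory sensory neurons in the antenna and maxillary palp, where a tuning receptor assembles with Orco. Gustatory receptors belong to the same insect channel superfamily and detect sugars, bitter compounds or, in the antenna, carbon dioxide. Ionotropic receptors derive from ionotropic glutamate receptors and combine tuning subunits with the broadly used co-receptors Ir25a, Ir76b and Ir8a to sense acids, amines, salt, temperature and humidity.

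More receptors reached 3 counts in at least 1 library in heads and in larval sections than in legs. In every library, more did so in legs than in larval sections. In heads 180 of 180 receptors reached 3 or more counts in at least 1 library, and 91 did so in every library. In larval sections 179 reached 3 counts in at least 1 library but only 13 in every library. In legs 101 did so in at least 1 library (31 Or, 36 Gr and 34 Ir) and 34 in every library, and 68 receptors had 0 counts in all 5 leg libraries. Any count at all was found for 180, 180 and 112 receptors in heads, larval sections and legs. Among all 16977 genes this held for 16638, 16702 and 14200. A count of 0 limits a receptor to below 3 counts, which was at most 0.102 CPM (counts per 1e6 counts of a library) before scaling in any of the 17 libraries, and this limit covers counting error only.

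**Figure D1:**
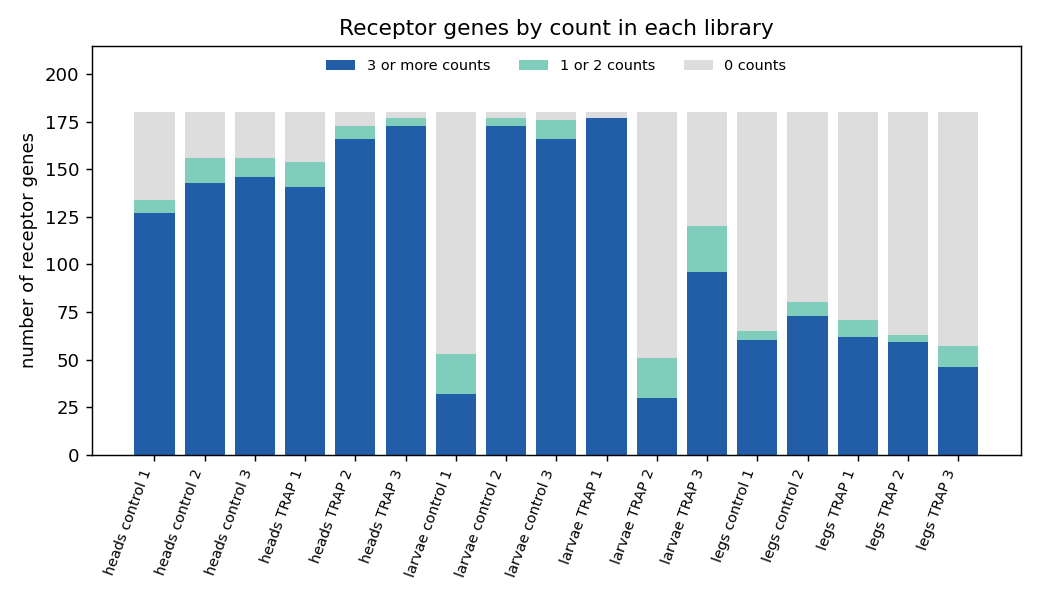
Number of receptor genes (y axis, of 180) with 0, with 1 or 2, and with 3 or more counts in each of the 17 libraries (x axis). Larval control 1 and larval TRAP 2 stand apart from the other larval libraries, with 32 and 30 receptors at 3 or more counts, whereas the 5 leg libraries range from 46 to 73.

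Total counts ranged from 29512310 to 88324615 per library. The share of all genes at 0 counts moved with receptor detection, from 508 genes in head TRAP 3 to 3181 in head control 1, and from 782 genes in larval TRAP 1 to 6086 in larval TRAP 2. The gene that drives the adult GAL4 line, DIP-gamma, lay between 0.297 and 1.5 normalised CPM (CPM scaled by TMM factors within a tissue) in head controls and between 10.3 and 49.5 in head TRAP, but did not exceed 0.277 in any leg library. At an adjusted p under 0.05, 7.23% of all genes tested in heads were higher in TRAP and 9.41% lower. In heads all 9 neuronal markers and 8 of 9 photoreceptor markers were higher in TRAP, and 4 of 8 muscle markers were lower. Their summed levels in controls and TRAP were 529 to 631 and 1026 to 4344 normalised CPM for neurons, 36.7 to 51.2 and 113 to 323 for photoreceptors, and 15841 to 23013 and 7031 to 11433 for muscle, and no marker of these lists was at 0 in every library of a group. In larval sections 4 of 4 salivary gland glue genes were higher in TRAP, beside 0.234% of all genes. The summed levels of these 4 were 63.8 to 162 normalised CPM in controls and 3124 to 34255 in TRAP. The part of all these cell types in the receptor values was not tested.

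In heads the receptors with the highest levels fell in TRAP. Of 180 receptors 16 were lower and 1 was higher (edgeR quasi-likelihood test, Benjamini-Hochberg adjusted p under 0.05), beside 9.41% lower and 7.23% higher among the 16638 genes tested. The share of receptors called lower was therefore close to that of all genes. The median log2 fold change over the receptors was 0.35 and that over all genes 0.32, so that the median receptor lay close to the median gene. Among the 108 receptors with at least 1 count in every head library the receptor median was -0.15, and that of all genes so filtered 0.09. The 16 comprised 7 Or, 4 Gr and 5 Ir genes, and Ir25a, Orco and Ir76b, which are shared by many olfactory or taste neurons, were among them. Normalised CPM give a share of the RNA recovered with tagged ribosomes, so a lower value need not mean fewer cells or less RNA per cell. The cause was not tested.

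The calls followed level. All 4 receptors with a mean of at least 20 normalised CPM were lower, beside 23.6% of genes at that level. They include Or47a, whose reads cannot be told apart from those of the overlapping gene Cpr47Ea. Between 5 and 20 normalised CPM 11 of 20 receptors were lower, beside 7.27% of genes. Gr64b and Gr64c, which have identical counts, are counted there separately. Only 1 of 58 receptors between 1 and 5 normalised CPM was lower, and none of the 98 below 1 normalised CPM, where counts are low and the median log2 fold change was 1.14 for receptors and 1.69 for all genes. Every TRAP library lay below every control library for 33 receptors, beside 18.2% of all genes, and above it for 16, beside 16.3%.

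**Figure D2:**
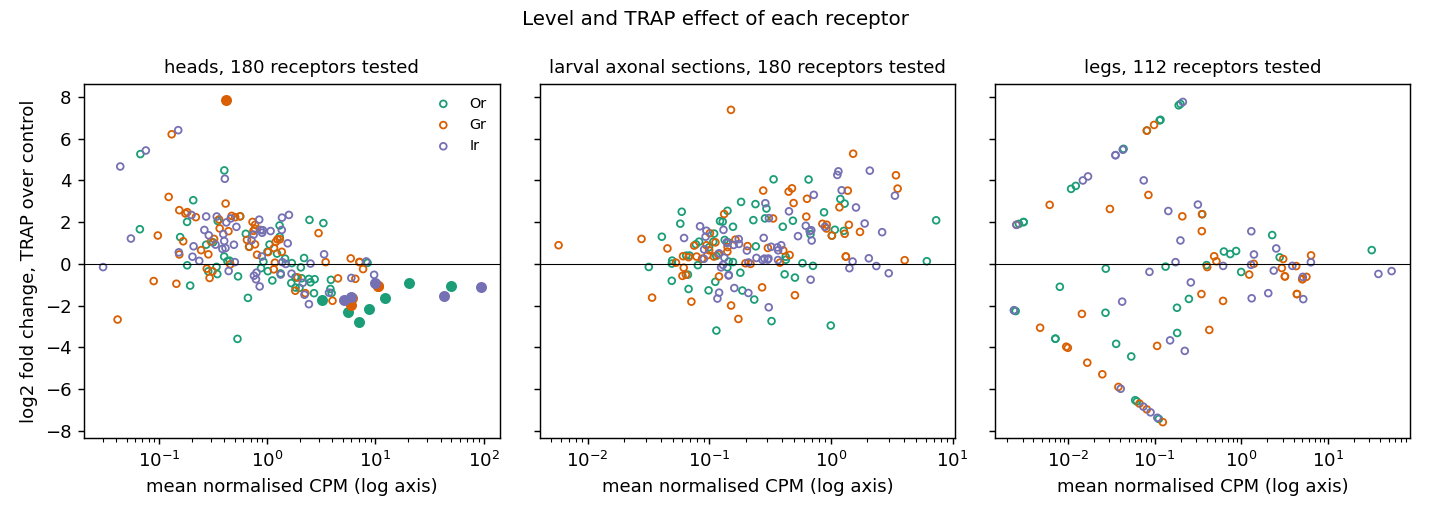
Log2 fold change of TRAP over control (y axis) against the mean normalised CPM over the libraries of a tissue (x axis, log scale) for each receptor tested, in heads, larval axonal sections and legs. Filled points passed an adjusted p of 0.05, which happened in heads only (16 lower, 1 higher), and the diagonal arms at low level in legs are receptors at 0 counts in 1 group, whose fitted value depends on the prior count.

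Among the co-receptors, Ir25a, the broadest co-receptor of the ionotropic family (FBgn0031634, chromosome 2L, 4830846 to 4835300), had 61.3, 61.6 and 67.5 normalised CPM in head controls and 21.4, 24.5 and 20.6 in TRAP. The groups were far apart, and the log2 fold change was -1.52 (SE 0.17, adjusted p = 0.000824). Ir76b, a co-receptor of olfactory and taste neurons that detect amines and salt (FBgn0036937, chromosome 3L, 20108484 to 20111534), had the highest level per kb of exon over all head libraries (40.7 CPM per kb), with 143, 137 and 105 normalised CPM in controls and 57.7, 62.1 and 59.1 in TRAP. All its TRAP values lay below all its control values, with a log2 fold change of -1.10 (SE 0.18, adjusted p = 0.00281). Orco, the obligate partner of the odorant receptors (FBgn0037324, chromosome 3R, 5407183 to 5412406), had 61.2, 73.3 and 67.5 normalised CPM in controls and 32.3, 35.5 and 27.9 in TRAP. Its groups did not overlap either, and its log2 fold change was -1.08 (SE 0.18, adjusted p = 0.0031). Ir8a, the co-receptor of acid-sensing neurons, differed from these: its control values of 2.35, 1.22 and 1.11 normalised CPM overlapped the TRAP values of 0.501, 1.61 and 1.18 (log2 fold change -0.51, SE 0.76, adjusted p = 0.678).

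Together Ir25a, Ir76b and Orco made up 38.0% to 42.8% of the summed receptor CPM in head controls and 21.6% to 36.6% in TRAP. The sum over all 180 receptors was 620.1, 681 and 633 normalised CPM in controls and 305, 383 and 499 in TRAP. The sum over the other 177 receptors was 355, 409 and 393 in controls and 193, 261 and 391 in TRAP, so that TRAP 3 alone lay within the control range.

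**Figure D3:**
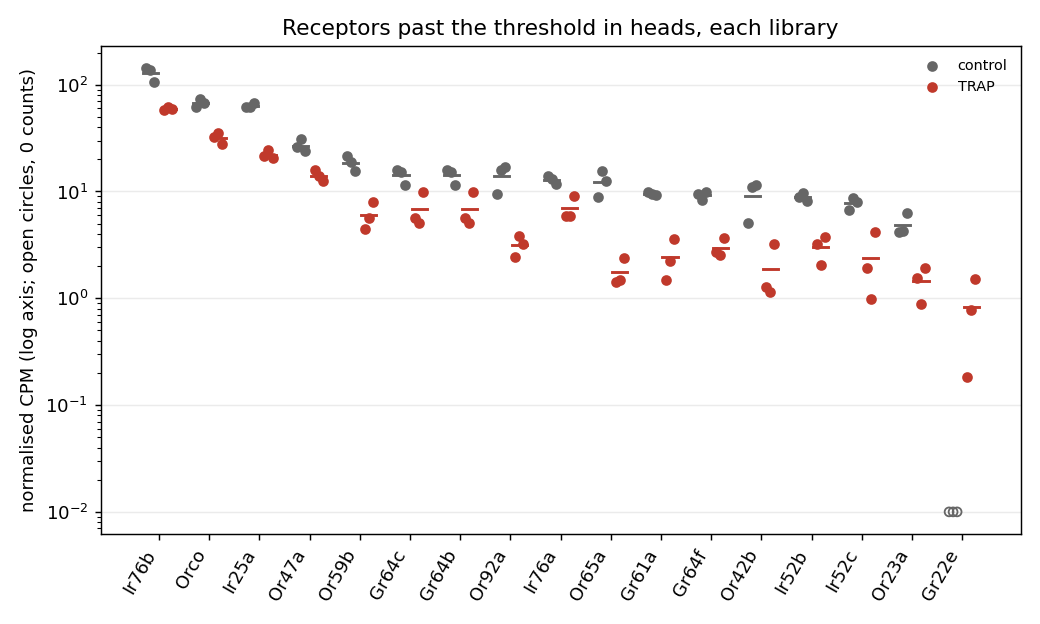
Normalised CPM (y axis, log scale) in each of 3 control and 3 TRAP head libraries for the 17 receptors past the threshold, ordered by control level, with bars at the group means and open circles at 0 counts. The TRAP points lie below the control points for 16 receptors, and Gr22e is at 0 in the 3 controls.

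Among the tuning odorant receptors, the largest fall was that of Or65a, a receptor of pheromone-type trichoid neurons (FBgn0041625, chromosome 3L, 6320611 to 6322098). It had 8.80, 15.5 and 12.6 normalised CPM in controls and 1.42, 1.5 and 2.36 in TRAP, with a log2 fold change of -2.80 (SE 0.36, adjusted p = 0.00116). Or42b, a receptor for fruit esters (FBgn0033043, chromosome 2R), had 5.12, 11 and 11.4 in controls and 1.27, 1.15 and 3.24 in TRAP (log2 fold change -2.28, SE 0.51, adjusted p = 0.0136). Or92a, which responds to fermentation odours (FBgn0038798, chromosome 3R), had 9.37, 16.0 and 16.9 in controls and 2.45, 3.80 and 3.24 in TRAP (log2 fold change -2.16, SE 0.33, adjusted p = 0.00222). Control 1 was the lowest control for each of these receptors, yet it still exceeded every TRAP value.

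The other odorant receptors called lower each shared a span with another gene, and in these counts reads of the pair cannot be told apart. Or59b, an ester receptor, had 21.3, 19.1 and 15.6 normalised CPM in controls and 4.43, 5.67 and 8.06 in TRAP (log2 fold change -1.62, adjusted p = 0.00402). Its overlapping gene CG43795, on the opposite strand, moved the other way, with a log2 fold change of 1.94 (adjusted p = 0.0107). Or23a had 4.13, 4.28 and 6.27 in controls and 1.56, 0.892 and 1.93 in TRAP (log2 fold change -1.74, adjusted p = 0.0389), while Prosbeta4R2, a gene of the same strand whose exons overlap it, had at most 0.929 normalised CPM in any head library. Or47a had 26, 30.7 and 24 in controls and 15.8, 14 and 12.5 in TRAP (log2 fold change -0.93, adjusted p = 0.0121). Its exons overlapped those of the cuticle protein gene Cpr47Ea on the opposite strand, which was more abundant (37.2 to 104 normalised CPM) and had a log2 fold change of -0.82 (adjusted p = 0.0621).

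Of the 4 receptors for pheromones or fly odours, Or65a passed the test and the other 3 did not. Or47b had 4.13, 4.78 and 5.70 normalised CPM in controls and 2.37, 2.73 and 3.51 in TRAP, without overlap (log2 fold change -0.76, SE 0.39, adjusted p = 0.227). Or67d, the receptor for the male pheromone cis-vaccenyl acetate, had 2.70, 3.06 and 3.98 in controls and 0.871, 1.87 and 2.56 in TRAP, again without overlap (adjusted p = 0.34). Or88a had overlapping groups (adjusted p = 0.606). None of the 7 maxillary palp receptors passed the test, their median log2 fold change was 0.26, and all 7 had overlapping groups.

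Among the 9 sugar receptors 4 were lower, beside 9.41% of all genes, and of these 4 Gr64b and Gr64c are 1 measurement. The 6 genes of the Gr64 cluster on chromosome 3L did not move alike. Gr64f, a co-receptor for most sugars (4035799 to 4037575), had 9.44, 8.41 and 9.90 normalised CPM in controls and 2.69, 2.53 and 3.64 in TRAP (log2 fold change -1.65, SE 0.31, adjusted p = 0.00626), and its overlapping opposite-strand gene CG11593 had a log2 fold change of 0.63 (adjusted p = 0.0794). Gr61a, a glucose receptor outside the cluster (841451 to 843701), had 9.79, 9.48 and 9.20 in controls and 1.48, 2.21 and 3.56 in TRAP (log2 fold change -1.97, SE 0.38, adjusted p = 0.00687). Gr64b and Gr64c share 1 annotated span and identical counts, and counted once they leave 15 receptors lower in heads, with 15.8, 15.2 and 11.5 in controls and 5.70, 5.03 and 9.94 in TRAP (log2 fold change -1.04, SE 0.31, adjusted p = 0.046). TRAP 3 was the highest TRAP library for each of these and came closest to the controls for Gr64b and Gr64c.

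Gr64a, the first gene of the cluster, had 4.35, 6.27 and 7.96 normalised CPM in controls and 1.06, 0.863 and 3.54 in TRAP, without overlap but short of the threshold (log2 fold change -1.76, SE 0.59, adjusted p = 0.0701). Gr64d and Gr64e, whose spans overlap each other, had log2 fold changes of 0.09 (SE 0.37 and 0.36) and overlapping groups. Gr43a, a fructose receptor that also serves as a nutrient sensor in the brain, had 6.16, 5.50 and 4.42 in controls and 6.44, 8.69 and 4.22 in TRAP (log2 fold change 0.26, adjusted p = 0.643). Gr5a, the trehalose receptor, had overlapping groups near 1 normalised CPM (log2 fold change 0.06, SE 0.74).

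None of the 5 widely expressed bitter receptors and neither carbon dioxide receptor passed the test in heads. Among the former the log2 fold changes were -0.25 for Gr32a, -0.65 for Gr33a, -0.69 for Gr66a, -1.40 for Gr89a and 1.48 for Gr39a, with adjusted p from 0.106 to 0.625. The carbon dioxide receptor subunits went opposite ways: Gr63a had 2.73, 2.47 and 2.51 normalised CPM in controls and 1.66, 1.18 and 0.326 in TRAP (log2 fold change -1.28, SE 0.71), and Gr21a had 0.381, 1.07 and 1.11 in controls and 1.19, 1.67 and 1.51 in TRAP (log2 fold change 0.76, SE 0.77). In both the groups were separate, with adjusted p of 0.265 and 0.536. Gr28b, linked to warmth and light sensing, had log2 fold change -0.71 (SE 0.29, adjusted p = 0.137), and Gr28a had overlapping groups.

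The only receptor called higher was Gr22e, found in bitter-sensing neurons (FBgn0045497, chromosome 2L, 1784062 to 1785286). It had 0 counts in all 3 controls and 7, 27 and 61 counts in TRAP (0.185, 0.776 and 1.53 normalised CPM, adjusted p = 0.0281). The TRAP mean was 8.90-fold above a floor of 3 counts per control library, which does not cover the spread between TRAP libraries. Over all genes, 2519, 1160 and 508 were at 0 in TRAP 1, 2 and 3. Genes below 1 normalised CPM had a median log2 fold change of 1.69. The part of this in Gr22e was not tested. Gr22e lost the call without TRAP replicate 2 (adjusted p = 0.0823), without TRAP replicate 3 (0.051) and without any 1 control (0.0692 to 0.0735). At an unadjusted p under 0.05 9 receptors were higher and 25 lower, beside 14.6% and 15.2% of all genes.

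Among the tuning ionotropic receptors 3 were lower, and of the 17 antennal Irs, co-receptors included, 3 were lower, beside 9.41% of all genes. Ir52b and Ir52c, neighbouring taste receptors on chromosome 2R (15501820 to 15503610 and 15504201 to 15506000), had log2 fold changes of -1.57 (SE 0.34, adjusted p = 0.0112) and -1.72 (SE 0.51, adjusted p = 0.0452). Ir52b had 8.80, 9.69 and 8.21 normalised CPM in controls and 3.19, 2.07 and 3.74 in TRAP. Ir52c had 6.64, 8.71 and 8.02 in controls and 1.93, 0.978 and 4.19 in TRAP, so that its TRAP values were spread more widely but stayed below the controls. Ir76a, an amine receptor that works with Ir25a and Ir76b (chromosome 3L, 19799278 to 19803427), had 13.8, 13.2 and 11.8 in controls and 5.86, 5.84 and 9.16 in TRAP (log2 fold change -0.89, SE 0.26, adjusted p = 0.046), and it overlaps CG14102 on the opposite strand.

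The temperature and humidity receptors did not pass the test and did not share a direction. Ir21a, part of the cooling sensor, had 5.78, 6.45 and 3.88 normalised CPM in controls and 1.71, 1.93 and 2.56 in TRAP (log2 fold change -1.38, SE 0.42, adjusted p = 0.0521). Ir68a, part of the moist-air sensor, had 0.159, 1.01 and 0.382 in controls and 1.77, 2.82 and 3.36 in TRAP (log2 fold change 2.35, SE 0.82, adjusted p = 0.0826). Both had separate groups. Ir40a, part of the dry-air sensor, had log2 fold change -0.52 (adjusted p = 0.23), and Ir93a, the co-receptor common to these sensors, had 1.49 (SE 0.93, adjusted p = 0.321) with overlapping groups.

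Other genes of chemosensory neurons and organs fell in the same head libraries. Of 19 listed, 11 were lower and none was higher, beside 9.41% lower and 7.23% higher among all genes tested. At a mean of at least 20 normalised CPM, 23.6% of genes were lower. The pheromone channel subunits ppk23, ppk25 and ppk29 had log2 fold changes of -1.60, -2.12 and -1.90. The pheromone-binding protein gene lush had -1.88, and Snmp1, a membrane protein of pheromone-sensing neurons, had 60.8, 83.4 and 75.7 normalised CPM in controls and 26.6, 29.8 and 37.9 in TRAP (log2 fold change -1.22, adjusted p = 0.0034). The transcription factors acj6 and pdm3, which control odorant receptor choice, had values of 0.26 and 0.32 and did not pass the test. The list of 19 includes 5 genes of antennal support cells, which are not neurons. Of these 5, 4 were lower and are part of the 11. The summed level of the 5 was 1150 to 1453 normalised CPM in controls and 359 to 496 in TRAP. No support cell marker was at 0 in either group, and the part of these cells in the receptor values was not tested.

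The direction of the 16 receptors was negative under every alternative that was run, but the calls depended on the spread and scaling used. A fit of all 17 libraries with 1 shared spread called 0 of them, and in heads it called only 52 higher and 139 lower of 16841 genes. Scaling by library size alone called 7 receptors lower and 5 higher. With it the calls over all genes shifted from 1203 higher and 1565 lower to 2909 and 463. The 7 receptors Ir25a, Or59b, Gr61a, Or65a, Ir76b, Orco and Or92a passed in every head fit other than that of all tissues. Without TRAP replicate 2 or without control replicate 2 the count fell to 9, without control replicate 3 to 10, and it was 9 when receptors that overlap another gene were left out.

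In larval axonal sections no receptor passed the test, beside 0.234% of the 16702 genes tested that were higher and 0.012% that were lower. At an unadjusted p under 0.05, 5 receptors were higher and none lower, beside 4.13% and 2.58% of all genes. DESeq2 also called none (8 higher and 0 lower unadjusted), beside 196 higher and 30 lower of the 16702 genes. The median log2 fold change over the receptors was 0.83, and over all genes 0.25, but with the replicate number as a block these medians turned to -0.44 and -0.11 and no receptor had an unadjusted p under 0.05. The summed receptor level was 30.9, 69.9 and 89.2 normalised CPM in controls and 346, 22.7 and 78.0 in TRAP, so that TRAP 1 stood far above the other 5 libraries and TRAP 2 below them. The neuronal markers moved with it: their sum was 12.8 to 33.0 in controls and 8.97 to 252 in TRAP, and their part in the receptor values was not tested.

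The larval receptors with the lowest p on the higher side rested on TRAP 1. Gr9a had 0.0707, 0.0795 and 0.873 normalised CPM in controls and 18, 0.105 and 1.43 in TRAP (log2 fold change 4.25, SE 1.62, adjusted p = 0.639). It overlaps CG15312 on the opposite strand, which had 0.099, 1.83 and 0.642 in controls and 20.8, 9.35 and 2.24 in TRAP (log2 fold change 3.65, adjusted p = 0.371). Gr93b had 0.113, 0.467 and 1.02 in controls and 18.4, 0.977 and 0.271 in TRAP (log2 fold change 3.61, SE 1.46, adjusted p = 0.676). Without TRAP replicate 1 the log2 fold changes were 1.17 and 0.29. Ir64a, an acid receptor of the antenna, had 0.198, 0.119 and 0.221 in controls and 9.66, 0 and 2.34 in TRAP, and its log2 fold change of 4.47 became 2.69 without that library. In each case the groups overlapped.

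On the lower side Or30a, a larval odorant receptor, had 1.99, 0.895 and 2.43 normalised CPM in controls and 0.671, 0 and 0 in TRAP. It was the only larval receptor with every TRAP value below every control value, beside 5.76% of all genes (log2 fold change -2.95, SE 2.14, adjusted p = 0.843). Or42a, expressed in olfactory neurons of larvae and of the adult palp, had 0, 0.368 and 0.261 in controls and 0.0584, 0 and 0 in TRAP, and Or67d had 1.23, 0.418 and 0.0602 against 0.219, 0 and 0.0246. Both had overlapping groups. No larval receptor had every TRAP value above every control value, beside 4.53% of all genes.

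**Figure D4:**
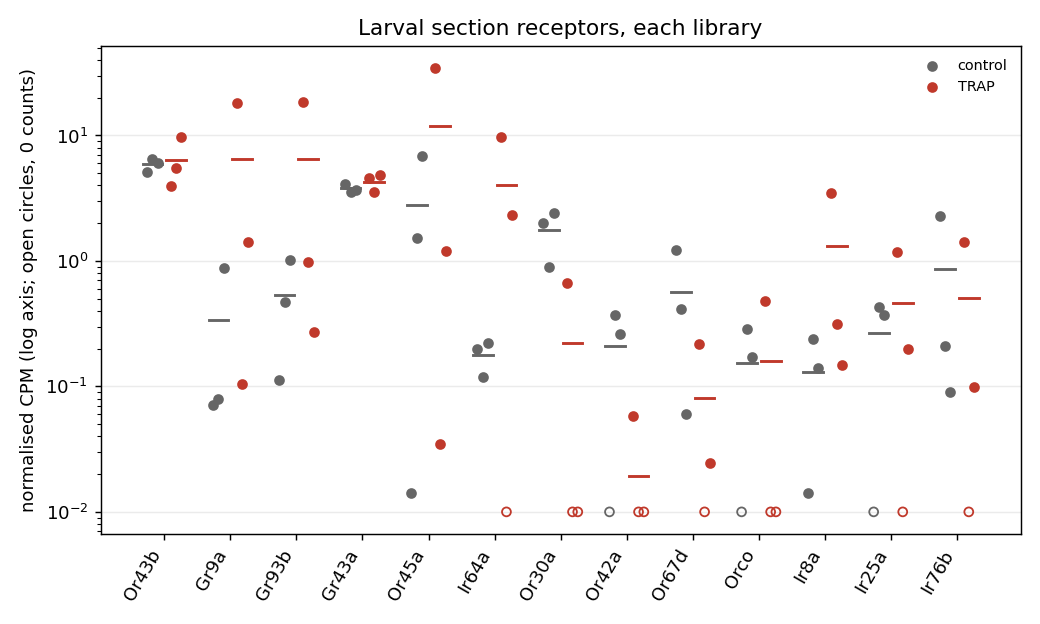
Normalised CPM (y axis, log scale) in each of 3 control and 3 TRAP larval libraries for the 5 receptors with the highest level per kb of exon, those with the lowest p and the co-receptors, with bars at group means and open circles at 0 counts. TRAP 1 is the high TRAP point of Gr9a, Gr93b, Or45a and Ir64a, at 18, 18.4, 34.4 and 9.66 normalised CPM.

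Per kb of exon, the receptors with the highest mean larval level were Or43b (4.36 CPM per kb), Gr9a (3.34), Gr93b (2.98), Gr43a (2.65) and Or45a (2.12). Or43b had 5.11, 6.52 and 5.99 normalised CPM in controls and 3.97, 5.51 and 9.80 in TRAP, and its exons overlap Cul1 on the opposite strand, a gene with 42.9 to 78.5 normalised CPM. Gr43a had 4.13, 3.55 and 3.70 in controls and 4.55, 3.52 and 4.8 in TRAP, and it overlaps Dhx15 (11.7 to 29.8 normalised CPM). These were the steadiest of the 5, whereas Or45a, a larval receptor that overlaps CG13739 and CG13954 on the opposite strand, ranged from 0.0141 to 34.4. The co-receptors were low: Orco was at 0 in 3 of 6 libraries with a maximum of 0.482, and Ir25a reached 1.18, Ir76b 2.28 and Ir8a 3.49 normalised CPM.

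In legs 112 receptors had any count and none passed the test, beside 0.113% of the 14200 genes tested that were higher and 0.12% that were lower. At an unadjusted p under 0.05, 1 receptor was higher and 5 were lower, beside 4.68% and 4.41% of all genes. DESeq2 called 1 receptor lower, beside 247 of the 14200 genes. The median log2 fold change over the receptors was -0.17, and over all genes -0.01. The summed receptor level was 255 and 243 normalised CPM in controls and 202, 210 and 218 in TRAP, and Ir25a, Ir76b and Orco made up 43.1% and 43.9% of it in controls and 38.3% to 39.7% in TRAP. Every TRAP library lay below both controls for 25 receptors, beside 12.8% of all genes, and above them for 3, beside 11.8%. The sums of the muscle markers and of the chemosensory partner genes were lower in the same TRAP libraries, although none of these genes passed the test. The muscle sum was 15200 to 15255 normalised CPM in controls and 10029 to 11684 in TRAP (5 of 8 below both controls, 1 above). The partner sum was 1082 to 1117 and 749 to 948, with 4 of 16 tested below both controls and 2 above. Most of that sum was ppk23, at 885 and 890 in controls and 514 to 813 in TRAP. The median log2 fold change of the 16 partners was 0.17. No muscle marker was at 0, ato, amos and ppk28 of the partner list were at 0 in all leg libraries, and their part in the receptor values was not tested.

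Per kb of exon the highest leg levels were those of Or47a and Ir76b (23.5 CPM per kb each) and Ir25a (10.6). Exons of Or47a overlap those of Cpr47Ea, at 128 to 236 normalised CPM in legs, and reads of the 2 genes cannot be told apart. Ir76b had 62 and 62.1 normalised CPM in controls and 47.7, 43.2 and 55.9 in TRAP (log2 fold change -0.34, SE 0.17, adjusted p = 0.604). Ir25a had 48.0 and 43.9 in controls and 31.5, 36.7 and 30.7 in TRAP (log2 fold change -0.48, SE 0.17, adjusted p = 0.374). Both sat lower in every TRAP library, without passing the test. The olfactory partner Orco had 0 and 0.812 in controls and 0.738, 0.435 and 0 in TRAP, and Ir8a, Gr21a and Gr63a had 0 counts in all 5 libraries. Of the odorant receptors for pheromones, Or65a was at 0 in every leg library and Or47b had 1 count in 1 library.

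All 9 sugar receptors reached 3 counts in every leg library. Gr64b and Gr64c, 1 measurement, had 9.08 and 5.03 normalised CPM in controls and 1.82, 3.06 and 2.91 in TRAP (log2 fold change -1.44, SE 0.46, adjusted p = 0.306). Gr64f had 3.99 and 3.99 in controls and 2.98, 4.09 and 0.865 in TRAP, with overlapping groups. Gr61a had 5.18 and 3.78 against 2.86, 2.56 and 7.11, likewise overlapping. Gr5a had 0.922 and 1.22 in controls and 0.246, 0.476 and 0.216 in TRAP (log2 fold change -1.77, SE 1.23, adjusted p = 0.718). Every TRAP value lay below both controls for 6 of the 9, Gr64b and Gr64c counted separately, beside 12.8% of all genes.

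**Figure D5:**
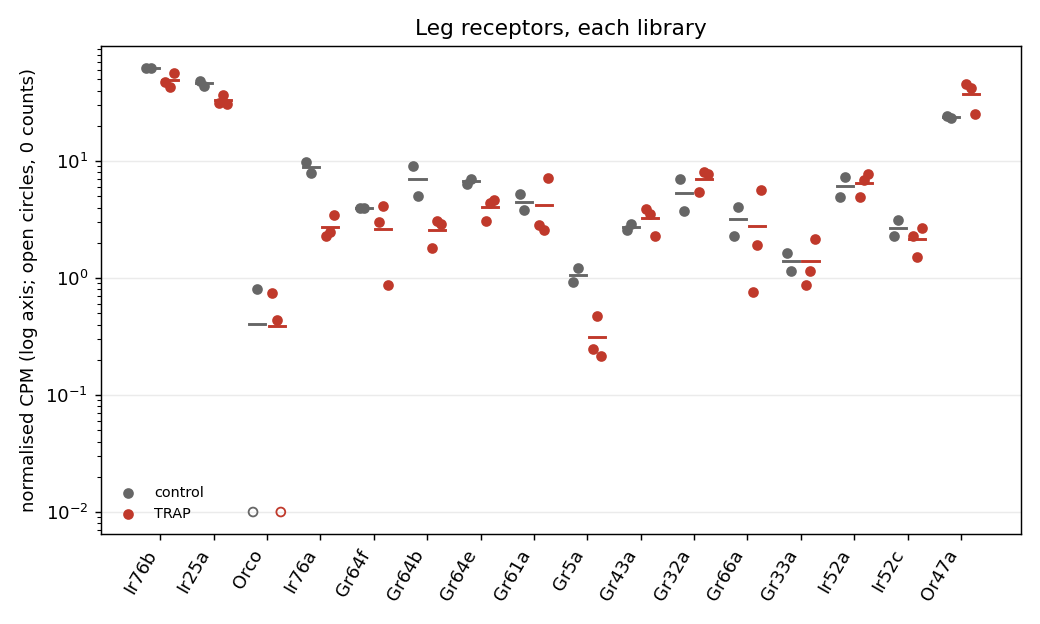
Normalised CPM (y axis, log scale) in each of 2 control and 3 TRAP leg libraries for co-receptors, sugar, bitter and other named receptors, with bars at group means and open circles at 0 counts. Ir76b, Ir25a and Or47a lie above 20 normalised CPM in every library, and Orco below 1. Exons of Or47a overlap those of the more abundant Cpr47Ea.

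The bitter receptors in legs did not pass the test. Gr32a, which also takes part in male courtship, had 6.95 and 3.70 normalised CPM in controls and 5.48, 8.06 and 7.70 in TRAP, with a level of 3.93 CPM per kb of exon, the highest Gr level in legs, and it overlaps CG6230 (23.0 to 29.3 normalised CPM). Gr66a ranged from 0.754 to 5.62 and Gr33a from 0.877 to 2.16 over the libraries, and in both the TRAP range spanned the controls. Among the Ir52 genes of leg taste neurons, Ir52a had 4.95 and 7.33 in controls and 4.91, 6.84 and 7.71 in TRAP. Ir52b had 6.58 and 6.39 in controls and 2.95, 4.62 and 5.08 in TRAP (log2 fold change -0.62, adjusted p = 0.688), and Ir52d was highest in TRAP 3, at 3.94 against 0.169 to 1.21 elsewhere.

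The lowest leg p on the lower side was that of Ir76a, with 9.78 and 7.89 normalised CPM in controls and 2.29, 2.46 and 3.49 in TRAP. The groups were well separated (log2 fold change -1.69, SE 0.38), yet the adjusted p was 0.132 in edgeR and 0.00062 in DESeq2. CG14102, on the opposite strand, did not follow it, with 3.17 and 0.979 in controls and 0.954, 1.45 and 6.09 in TRAP. On the higher side Or47a had 24.2 and 23.1 in controls and 45.3, 42.1 and 25.1 in TRAP (log2 fold change 0.66, SE 0.25, adjusted p = 0.435). The overlapping Cpr47Ea, at 128 to 236 normalised CPM, had a log2 fold change of 0.61. Or49a, a receptor for a parasitoid wasp odour, had 0 counts in both controls and 43, 21 and 0 in TRAP, and Ir87a 0 in both controls and 0, 17 and 65 in TRAP, neither past the test.

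Heads and legs share the driver, so the TRAP effect on each receptor was compared between them by the interaction of genotype and tissue. The effect differed for 3 receptors, 2 more positive and 1 more negative in legs, beside 4.29% and 2.54% of the 16706 genes tested. Ir25a fell in heads and less so in legs, with a leg minus head difference of 1.08 on the log2 scale (SE 0.23, adjusted p = 0.0187). Or47a differed by 1.63 (SE 0.33, adjusted p = 0.0166), beside Cpr47Ea values of -0.82 in heads and 0.61 in legs. Ir68a had 5, 34 and 12 counts in head controls, 67, 98 and 134 in head TRAP, 13 and 24 in leg controls and 0 in every leg TRAP library (adjusted p = 0.0174). Ir76a, Gr64f, and Gr64b with Gr64c, lower in heads and not called in legs, were not among them, so that a difference between tissues was not shown for these.

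The interaction calls rested on few libraries: the count was 1 without head TRAP replicate 2, 1 without leg control replicate 1, 0 without leg control replicate 2 and 5 without leg TRAP replicate 2. DESeq2 called 11. Heads came from males and legs from both sexes, and the part of sex, like that of batch, cannot be told apart from that of tissue.

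Across tissues, 100 receptors reached 3 counts in at least 1 library of each. In all 17 libraries 9 did so, namely Gr32a, Gr39a, Gr43a, Ir56b, Ir75d, Ir76a, Ir85a, Or43b and Or83a. Exons of at least Gr32a, Gr43a, Ir76a and Or43b overlap a gene on the opposite strand, and reads of the pair cannot be told apart. A further contrast was between receptors found in every head library and absent at 3 counts from legs, of which there were 25 (16 Or, 2 Gr and 7 Ir). Control levels, scaled within each tissue and set side by side only, were 61.2 to 73.3 normalised CPM for Orco in heads and 0 to 0.812 in legs, whereas Ir25a had 61.3 to 67.5 in heads and 43.9 to 48.0 in legs.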

How the data were processed

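RNA bound to Flag-GFP-RpL10 was measured in 17 libraries of 3 tissues. Per the labels and methods, the authors made SMART-Seq HT and Nextera XT libraries, ran Trim Galore, HISAT2 2.2.1 (build BDGP6) and SAMtools 1.12, and quantified genes in SeqMonk. The deposited values are raw counts per gene, with no scaling. Strand setting, introns and whether reads or pairs were counted are not given in the sources used here. Reads carry no molecular identifiers, so limits from counts cover counting error only. Another leg control, which the methods say was left out for high DNA contamination, was not analysed here.

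Every gene counted in 1 or more libraries of a tissue was tested with edgeR 4.0.16 (R 4.3.3) by the two-sided quasi-likelihood F-test on TMM-scaled counts, each tissue alone, with Benjamini-Hochberg adjustment over all genes tested and a threshold of 0.05. Normalised CPM are counts per 1e6 of the TMM-scaled library size. DESeq2 1.42.0, other scalings, filters, thresholds and fits, the replicate number as a block and leaving out each library were alternatives. Fits were tested on simulated data. Replicate libraries differed by more than sampling noise and none was counted as a copy.

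Named receptors were the co-receptors, those past the threshold (at most 15 by size of change), the 5 with the highest level per kb of exon, the 3 with the lowest p where a direction had no call, and receptors of known role. Beyond this rule Ir76a in heads, Ir52b and Ir52d in legs and the receptors detected in all libraries were named after their values were seen. The receptors and lists were chosen with earlier results of these data known. No receptor sequence is printed.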

Additional observations from a re-analysis of the deposited data

Results flagged for a closer look

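The TRAP effect differed between heads and legs for 3 receptors by the test of the genotype and tissue interaction (edgeR, adjusted p under 0.05). The leg minus head difference in log2 fold change was 1.08 for Ir25a, the co-receptor of ionotropic receptors, and 1.63 for Or47a, whose exons overlap the more abundant Cpr47Ea. It was -9.16 for Ir68a, a receptor of moist-air neurons, where all 3 leg TRAP libraries had 0 counts, so that this fitted value depends on the prior count and is no bound. Ir25a lost the call under library size scaling (adjusted p = 0.169), as did Or47a (0.0522). Without leg control replicate 2 all of them lost it (0.0912 for Ir25a, 0.078 for Or47a and 0.0608 for Ir68a).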

How the results depend on the processing

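None of the fold changes compared under the alternatives reversed. These were the receptors called in heads, those with the lowest p in larval sections and legs, Ir25a and Ir76b in legs, and the interaction calls. Other named receptors were not compared in this way. The receptor medians turned negative in heads with a filter of 1 count in every library (-0.15) and in larval sections with the replicate block (-0.44). The count of receptors higher in head TRAP, 1 in the reported fit, was 2 with a filter of 1 count in every library, 7 with DESeq2, 5 with library size alone and 0 in a fit of all tissues or at an adjusted p under 0.01, and it ranged from 0 to 3 when each library was left out. The count lower in head TRAP, 16, was 23 with DESeq2 and 0 in the fit of all tissues. It was 7 with library size alone, 8 at an adjusted p under 0.01 and 9 without receptors that overlap another gene (chosen after seeing the data). When each library was left out it ranged from 9 to 22. Over the 16638 genes tested in heads, DESeq2 called 2060 higher and 1806 lower, and library size alone 2909 and 463. The fit of all tissues called 52 and 139 of 16841 genes. Of the 16, the 4 called least often were Gr64b, Gr64c, Ir52c and Ir76a. With 3 counts required in every library, detection was 91 in heads, 13 in larval sections and 34 in legs, and it was 63 in legs without overlapping receptors. Leaving out each library gave 179 to 180 in heads, 179 in larval sections and 85 to 99 in legs. DESeq2 called 1 receptor lower in legs, beside 247 of 14200 genes, and 11 receptors that differed between heads and legs. The share of all genes that differed in DESeq2 is not given here. In the reported interaction test, leaving out each library gave 0 to 5 receptors. Libraries with the same replicate number in their titles did not deviate together in every pair (correlations of 0.28, 0.13 and 0.08 in heads, -0.51, -0.27 and -0.0041 in larval sections, and 0.04 and 0.06 in legs). In heads, in legs and for larval replicate 1, the library names of such a pair carry different numbers. With 2 leg controls, the leg values of the controls also mirror each other. The correlations therefore cannot decide pairing, and the numbers were not taken as pairs. With the replicate block, 3 receptors were higher and 19 lower in heads, and not every library correlated best with its own number. Causes of these shifts were not tested. Low counts limit most receptors, of which 98 in heads had a mean below 1 normalised CPM.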
